A study of Rattus norvegicus with 12 samples.

Results

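The megalin and cubilin uptake machinery of the kidney was described here as 8 genes, Lrp2, Cubn, Amn, Fcgrt, Lrpap1, Dab2, Clcn5 and Ocrl, whose messenger RNA was followed through 2 rat models of renal fibrosis. The rows were found by gene symbol in 2 tables of 22132 entries (control and adenine rats) and 32623 entries (sham and UUO rats), which together held 27723 symbols. Each of the 8 genes had 1 entry in each table, and all 8 passed the minimum level for testing in both.

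Kidney RNA was sequenced from 12 wild-type male Sprague Dawley rats, 3 in each group, which were 8 weeks old when bought. The adenine group was given 220 mg/kg of adenine each day through a gastric tube over 3 weeks, and the control group was given saline over the same time. In the UUO group (unilateral ureteral obstruction) the left ureter was tied, and in the sham group it was exposed and left untied, 2 weeks before the kidneys were taken. Each rat gave 1 library, and both models are of male rats at 1 time point.

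Megalin, encoded by Lrp2, is a very large receptor on the brush border of the proximal tubule, where it takes filtered albumin, vitamin carriers and small proteins back out of the tubular fluid. Cubilin, encoded by Cubn, binds many of the same ligands but has no segment that crosses the membrane, and it reaches the surface and is taken up together with amnionless, encoded by Amn. The remaining members serve folding, coat formation, endosome handling and recycling: Lrpap1 encodes RAP, the chaperone that keeps ligands off megalin in the endoplasmic reticulum. Dab2 encodes the clathrin adaptor that binds the tail of megalin, Clcn5 the chloride and proton exchanger of early endosomes that is mutated in Dent disease, and Ocrl the phosphoinositide phosphatase that is mutated in Lowe syndrome. Fcgrt encodes the heavy chain of the neonatal Fc receptor, which returns albumin and IgG from endosomes to the cell surface.

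The promoters of the 3 receptor genes are shown because Lrp2 and Amn fell in both models while Cubn, with FPKM as deposited, did not pass the test in either. Each sequence is the 250 bases before the RefSeq gene start on the GRCr8 assembly, written 5′ to 3′ on the strand of the gene, for Lrp2 at chr3:74754536-74754785 (minus strand), Cubn at chr17:81501695-81501944 (minus strand) and Amn at chr6:136132317-136132566 (plus strand). Capitals mark matches, on either strand, to TAATNATTA (the core that HNF1 factors bind), CAAAGTNCA (the core that HNF4 factors bind) and GGGCGG (a GC box). None of the capital stretches overlap each other.
Lrp2: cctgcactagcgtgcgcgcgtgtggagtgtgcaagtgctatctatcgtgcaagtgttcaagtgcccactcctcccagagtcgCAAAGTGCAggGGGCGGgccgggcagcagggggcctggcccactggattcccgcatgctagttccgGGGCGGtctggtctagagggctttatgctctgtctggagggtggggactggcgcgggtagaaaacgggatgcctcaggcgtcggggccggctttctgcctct
Cubn: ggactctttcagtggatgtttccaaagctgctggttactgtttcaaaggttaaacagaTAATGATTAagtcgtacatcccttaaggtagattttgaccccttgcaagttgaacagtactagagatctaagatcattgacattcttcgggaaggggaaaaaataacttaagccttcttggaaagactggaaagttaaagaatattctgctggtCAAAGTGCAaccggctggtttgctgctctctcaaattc
Amn: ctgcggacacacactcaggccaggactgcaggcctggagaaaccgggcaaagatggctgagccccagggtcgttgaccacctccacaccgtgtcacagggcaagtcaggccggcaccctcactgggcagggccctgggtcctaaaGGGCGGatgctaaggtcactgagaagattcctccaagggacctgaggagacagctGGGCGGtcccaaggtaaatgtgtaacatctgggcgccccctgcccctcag

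The motifs were picked with these sequences in view, so their presence is a description. The Lrp2 promoter held CAAAGTGCA 168 to 160 bases before the start and a pair of GC boxes, from 157 to 152 and from 102 to 97 bases before it. The Cubn promoter held the HNF1 core 192 to 184 bases and CAAAGTGCA 38 to 30 bases before the start and no GC box, and the Amn promoter held GC boxes 105 to 100 and 50 to 45 bases before the start and no match to either HNF core. Of 33469 rat promoters of the same length, 0.562% held the HNF1 core, 1.06% the HNF4 core and 30.5% a GC box. Base composition differed as well, with 64.4% G or C and 17 CpG pairs in the promoter of Lrp2, 62.8% and 8 in that of Amn and 40% and 3 in that of Cubn, where the median promoter had 51.2% and 5. RefSeq promoters were found for 7 of the 8 genes, all but Ocrl. Of the members not shown, Lrpap1 and Clcn5 also had GC boxes, while Fcgrt and Dab2 had no match to these motifs. Whether motifs or base composition go with the changes was not tested.

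Expression was given as FPKM, which divides the fragments of a gene by its transcript length and by the mapped fragments of the library. No read counts were used, so the depth behind a value is unknown and the precision is that of 3 rats. Changes were tested in each table by itself with limma on log2(FPKM + 0.1), and p was adjusted over the 15029 and 15043 entries that reached an FPKM of 0.5 in no fewer than 3 of their 6 samples. The added 0.1 makes the log2 fold change of low genes smaller. FPKM summed to between 564972 and 582725 in control, 468389 and 487770 in adenine, 619664 and 630244 in sham and 528811 and 539011 in UUO samples. Over all tested entries the median change was 0.30 after adenine and 0.62 after UUO, and median-of-ratios scaling, in which a sample's FPKM are divided by the median of their ratios to a geometric mean profile of the table, moved it to 0.014 and 0.032. In bulk tissue, fewer cells of a type and less RNA per cell cannot be told apart.

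In kidneys without injury, the chaperone gene and the megalin gene were the most abundant members. By mean FPKM, a level scaled by transcript length, the order in control rats was Lrpap1, Lrp2, Amn, Fcgrt, Dab2, Cubn, Ocrl and Clcn5. The values of Amn and Fcgrt overlapped, as did those of Dab2 and Cubn and those of Ocrl and Clcn5, and the other neighbours did not. In sham rats the order was Lrpap1, Lrp2, Fcgrt, Dab2, Cubn, Amn, Clcn5 and Ocrl, with overlap between Fcgrt and Dab2 and between Cubn and Amn. By its mean only, Amn, whose product carries cubilin, thus stood above Fcgrt in control rats and below Cubn in sham rats. Within rats, Amn was below Fcgrt in control rats 1 (56.0 against 59.0 FPKM) and 2 (64.5 against 68.5). It was above Cubn in sham rat 2 (28.3 against 24.6). The tables were normalized separately and the difference in order between control and sham rats was not tested.

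Injury changed this order in both models. In adenine rats it was Fcgrt, Dab2, Lrpap1, Lrp2, Cubn, Ocrl, Amn and Clcn5, and of the neighbours only Lrpap1 and Lrp2, and Cubn and Ocrl, did not overlap. In UUO rats it was Fcgrt, Lrpap1, Dab2, Lrp2, Cubn, Amn, Ocrl and Clcn5, and here only Fcgrt and Lrpap1 overlapped. The gene of the recycling receptor Fcgrt was therefore at the head of both orders by its mean, where Lrpap1 had been in both uninjured groups.

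**Figure D1:**
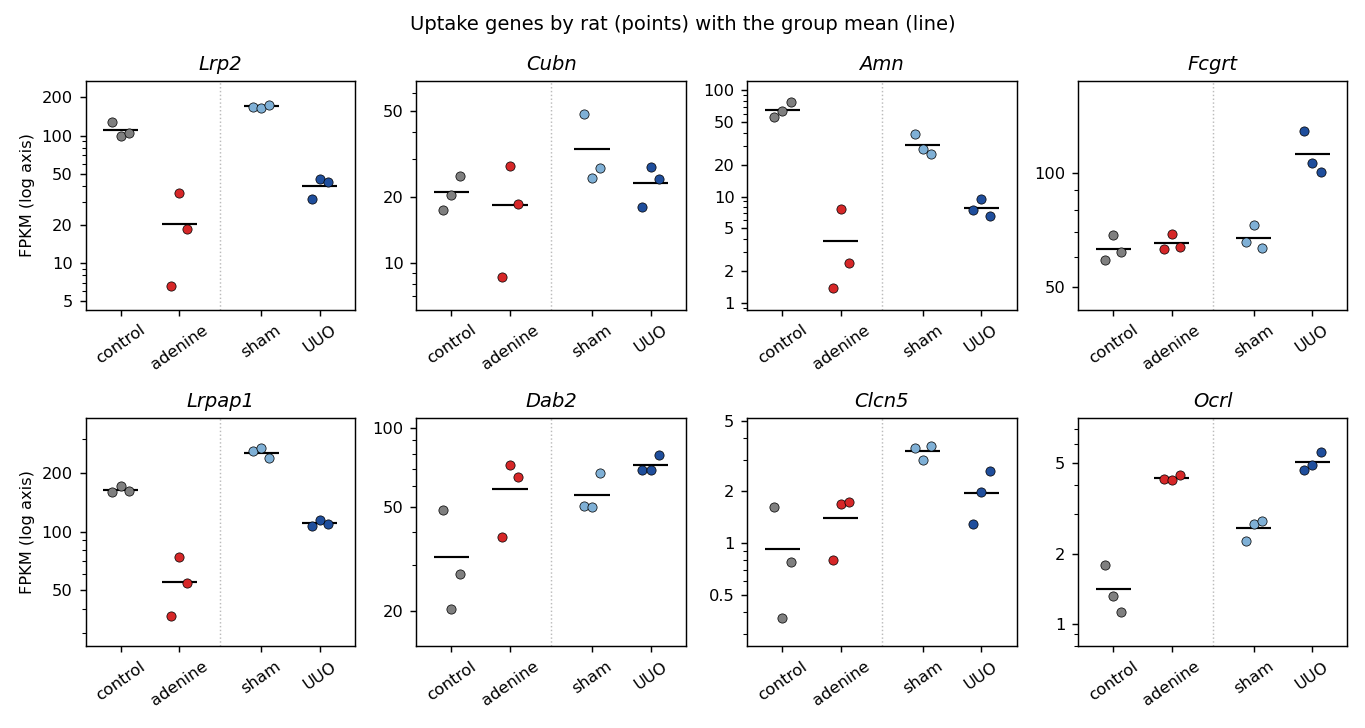
FPKM (log axis) of the 8 uptake genes, with 1 point per rat and a line at the mean of each group of 3; the dotted line parts the 2 tables, which were normalized separately. Lrp2, Amn and Lrpap1 of adenine and UUO rats lie below all their controls, Ocrl lies above them, and Cubn overlaps in both models.

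The adenine model lowered the genes for megalin, amnionless and RAP and raised Ocrl. Lrp2 was 6.73-fold, Amn 21.5-fold and Lrpap1 3.10-fold lower, and Ocrl was 2.96-fold higher. Of the 8 genes, 4 passed an adjusted p of 0.05, 3 of them lower and 1 higher, where 59.4% of all tested entries passed, 39.6% higher and 19.9% lower. With the study's further threshold of an absolute log2 fold change of 2, 2 genes passed, Lrp2 and Amn, both lower, where 15.7% of entries passed, 10.7% higher and 5.03% lower. The groups did not overlap for these 4 genes, as for 68.0% of all entries, and the median log2 fold change of the 8 genes was -0.14.

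Ureteral obstruction lowered the same 3 genes and Clcn5, and raised Ocrl, Fcgrt and Dab2. Lrp2 was 4.24-fold, Amn 3.90-fold, Lrpap1 2.32-fold and Clcn5 1.76-fold lower, while Ocrl was 1.91-fold, Fcgrt 1.66-fold and Dab2 1.31-fold higher. Of the 8 genes, 7 passed the adjusted p, 4 lower and 3 higher, against 70.5% of all entries, 56.1% higher and 14.4% lower. With the fold threshold 1 passed, Lrp2 (2 with median-of-ratios scaling, Lrp2 and Amn), against 17.4% of entries, 13.2% higher and 4.21% lower, and the groups did not overlap for 7 genes, against 75.7%. The median log2 fold change of the 8 genes was -0.65. With median-of-ratios scaling, Lrp2, Amn, Lrpap1, Clcn5 and Cubn passed as lower and no member passed as higher.

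Lrp2, abundant in uninjured kidney, was lower in every injured rat of both models. Its FPKM was 129, 99.9 and 105 in the control rats and 6.61, 35.6 and 18.4 in the adenine rats. All adenine rats lay below all control rats, and the means were 111 ± 15.4 and 20.2 ± 14.6 (SD, n = 3). The log2 fold change was -2.75 (SE 0.56, limma adjusted p = 0.00521). In the other table Lrp2 was 168, 164 and 175 FPKM in sham rats and 31.6, 46.0 and 43.3 in UUO rats, again without overlap and with little spread among the sham rats. The change was -2.09 on the log2 scale (SE 0.15, limma adjusted p = 4.69e-05), and it fell short of the fold threshold with FPKM rescaled to the same sum (-1.86) and without UUO rat 1 (-1.92).

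Cubn, the gene of the partner receptor, did not pass the test in either model. It was 17.6, 20.5 and 25.1 FPKM in control rats and 8.63, 27.8 and 18.6 in adenine rats, so the adenine rats lay on both sides of the control range (log2 fold change -0.34, SE 0.41, limma adjusted p = 0.501). Sham rats had 48.3, 24.6 and 27.2 FPKM and UUO rats 18.0, 27.5 and 24.1. The sham rat with 48.3 FPKM stood above the rest and the other sham rats lay within the UUO range (log2 fold change -0.48, SE 0.28, limma adjusted p = 0.165). With median-of-ratios scaling the UUO value was -1.08 and passed (limma adjusted p = 0.0152), and without sham rat 1 it was -0.18.

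Amn had the largest change of the 8 genes after adenine. It was 56.0, 64.5 and 77 FPKM in control rats and 1.37, 7.59 and 2.39 in adenine rats, means of 65.8 ± 10.6 and 3.78 ± 3.34 (SD, n = 3), and the groups were far apart. The log2 fold change was -4.43 (SE 0.56, limma adjusted p = 0.000726), and 0.792% of all tested entries had a lower one. In sham rats Amn was 39.0, 28.3 and 25.4 FPKM and in UUO rats 7.39, 9.40 and 6.59, also without overlap. The change of -1.97 on the log2 scale (SE 0.20, limma adjusted p = 0.000185) fell short of the fold threshold, which it passed with median-of-ratios scaling (-2.56) and without sham rat 2 (-2.02), sham rat 3 (-2.09) or UUO rat 2 (-2.11).

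Because cubilin and amnionless act as 1 complex, the ratio of their FPKM within each rat was also taken, a comparison picked after the values had been seen. Cubn over Amn was 0.314, 0.318 and 0.326 in control rats, a narrow range although each gene varied between them, and 6.31, 3.66 and 7.79 in adenine rats. It was 1.24, 0.872 and 1.07 in sham rats and 2.43, 2.92 and 3.66 in UUO rats. The ratio was higher in all injured rats of both models, and the 2 uninjured groups differed in it, with Amn above Cubn in every control rat and at about the same level in sham rats. The ratio of Lrp2 to Cubn went the other way, from 7.32, 4.87 and 4.18 in control to 0.765, 1.28 and 0.987 in adenine rats and from 3.49, 6.67 and 6.43 in sham to 1.76, 1.67 and 1.79 in UUO rats. For each of these comparisons the two-sided exact permutation p was 0.1, the smallest that 3 rats against 3 can give.

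**Figure D2:**
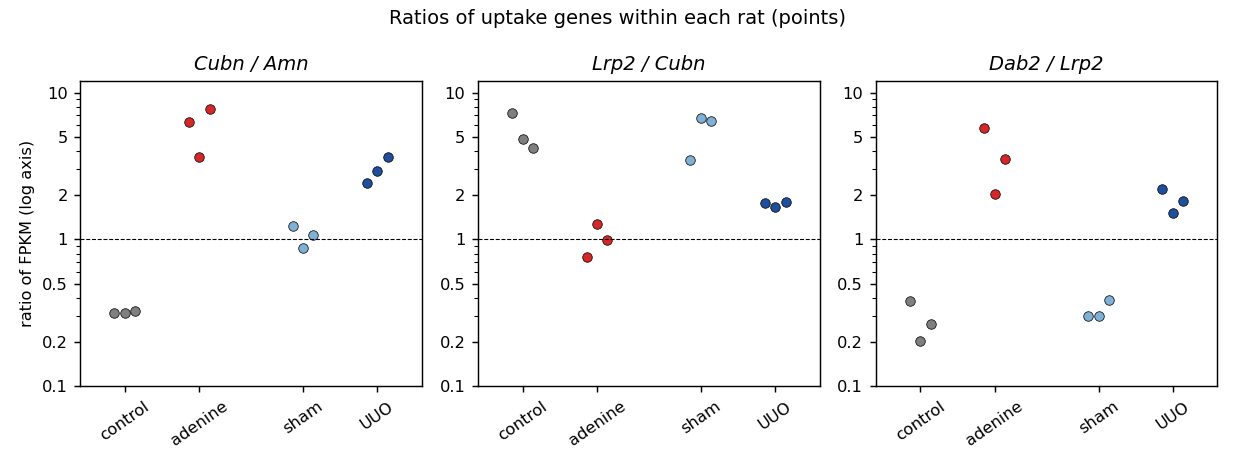
Ratio of the FPKM of Cubn to Amn, Lrp2 to Cubn and Dab2 to Lrp2 within each rat (log axis, 1 point per rat, dashed line at equal FPKM). In each panel the adenine rats lie apart from the control rats and the UUO rats apart from the sham rats, with Cubn over Amn at 3.66 or more in adenine rats and 0.326 or less in control rats.

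Lrpap1, the chaperone gene, followed megalin with a smaller change. It was 160, 171 and 162 FPKM in control rats and 36.6, 74.1 and 54.5 in adenine rats, without overlap (log2 fold change -1.63, SE 0.24, limma adjusted p = 0.0014). It was 259, 270 and 239 FPKM in sham rats and 107, 115 and 109 in UUO rats, both groups tight (log2 fold change -1.21, SE 0.083, limma adjusted p = 4.27e-05). Lrp2 over Lrpap1 was nevertheless lower in all injured rats, going from between 0.584 and 0.803 in control to between 0.180 and 0.480 in adenine rats, and from between 0.610 and 0.732 in sham to between 0.296 and 0.400 in UUO rats.

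Dab2, the adaptor gene, had a positive change in both models, with a sign that turned after UUO with median-of-ratios scaling. Control rats had 48.7, 20.4 and 27.6 FPKM and adenine rats 38.2, 72.4 and 65.0, and the first rat of each group fell within the other (log2 fold change 0.90, SE 0.37, limma adjusted p = 0.072). Without control rat 1 it passed at 1.25 (adjusted p = 0.0181), without adenine rat 1 at 1.18 (adjusted p = 0.0354) and with FPKM rescaled to the same sum at 1.17 (adjusted p = 0.0288). Sham rats had 50.3, 49.8 and 67.2 FPKM and UUO rats 69.3, 69.5 and 79.0, close but without overlap. The log2 fold change was 0.39 (SE 0.14, limma adjusted p = 0.037) and turned to -0.21 with that scaling, and the call was lost in 5 of 6 fits that left out 1 rat, all but that without sham rat 3 (adjusted p up to 0.112), and without the variance trend (adjusted p = 0.0637). Relative to megalin the adaptor message was higher in all injured rats: Dab2 over Lrp2 was between 0.204 and 0.379 in control and between 2.03 and 5.79 in adenine rats, and between 0.299 and 0.385 in sham and between 1.51 and 2.19 in UUO rats.

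Dab2 and Fcgrt are also expressed by macrophages and endothelium, so those markers are given beside them. All 12 of 12 myeloid markers rose in both models, and their summed FPKM went from between 98.9 and 109 in control to between 1535 and 2032 in adenine rats and from between 101 and 129 in sham to between 899 and 1300 in UUO rats. Of 10 endothelial markers, 3 rose and 5 fell after adenine (summed FPKM 151 to 187 in control and 84.2 to 110 in adenine rats), and 5 rose and 1 fell after UUO (164 to 189 in sham and 274 to 311 in UUO rats). With median-of-ratios scaling 3 of them rose and 2 fell after UUO. Of all tested entries 39.6% rose and 19.9% fell after adenine, and 56.1% rose and 14.4% fell after UUO. None of the defining markers was at 0 in all samples of a table. The part of these cells in the values of Dab2 and Fcgrt was not tested.

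Fcgrt, the recycling receptor gene, kept to a narrow range after adenine. It was 59.0, 68.5 and 62.0 FPKM in control rats and 63.1, 69.0 and 64.0 in adenine rats, which overlap almost wholly. The log2 fold change was 0.051 (SE 0.099, limma adjusted p = 0.675), turning to -0.24 with median-of-ratios scaling and passing at 0.32 (adjusted p = 0.0273) with FPKM rescaled to the same sum. In the UUO model it went from 65.6, 72.8 and 63.3 FPKM in sham rats to 129, 107 and 101 in UUO rats, without overlap (log2 fold change 0.73, SE 0.12, limma adjusted p = 0.00132), and with median-of-ratios scaling it was 0.13 and the call was lost (adjusted p = 0.442). B2m, whose product is the light chain of this receptor and of class I MHC molecules, rose in both models by 1.35 (SE 0.25, adjusted p = 0.00386) and 2.02 (SE 0.12, adjusted p = 3.0e-05) on the log2 scale. B2m over Fcgrt was between 6.22 and 7.10 in control and between 12.2 and 24.2 in adenine rats, and between 4.88 and 6.99 in sham and between 12.6 and 16.0 in UUO rats, with no overlap in either model.

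Clcn5, the endosomal exchanger gene, was low throughout and moved in no common direction. Control rats had 1.62, 0.370 and 0.777 FPKM and adenine rats 0.802, 1.68 and 1.71, so that control rat 1 was as high as the adenine rats (log2 fold change 0.68, SE 0.53, limma adjusted p = 0.300). Sham rats had 3.53, 3.01 and 3.61 FPKM and UUO rats 1.28, 1.96 and 2.60, without overlap (log2 fold change -0.82, SE 0.27, limma adjusted p = 0.0301). This call was lost without sham rat 1, sham rat 3, UUO rat 1 or UUO rat 2 (adjusted p up to 0.0777) and with FPKM rescaled to the same sum (-0.60, adjusted p = 0.0821).

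Ocrl, the phosphatase gene, was the member that rose in both models. It was 1.79, 1.32 and 1.12 FPKM in control rats and 4.27, 4.22 and 4.41 in adenine rats, and the adenine rats lay within a very narrow range above all controls (log2 fold change 1.56, SE 0.21, limma adjusted p = 0.000858). It was 2.29, 2.71 and 2.78 FPKM in sham rats and 4.67, 4.90 and 5.57 in UUO rats, again apart (log2 fold change 0.94, SE 0.16, limma adjusted p = 0.00163). With median-of-ratios scaling the UUO value was 0.35 and no longer passed (adjusted p = 0.081), while the adenine call held in every alternative run.

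**Figure D3:**
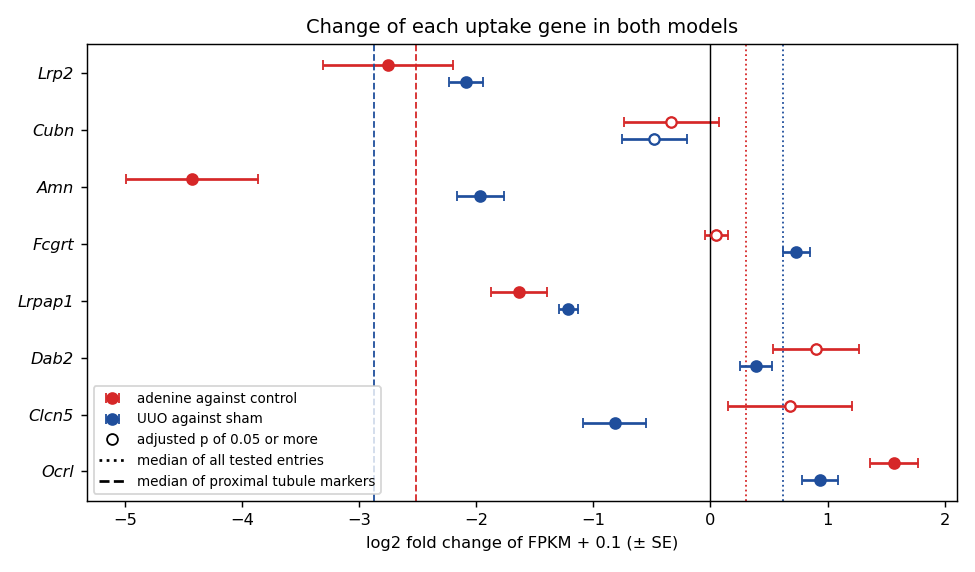
Log2 fold change of FPKM + 0.1 with its SE for each uptake gene in the adenine and UUO models; open points did not pass an adjusted p of 0.05. Dotted lines mark the median of all tested entries (0.30 and 0.62) and dashed lines that of the proximal tubule markers (-2.51 and -2.87); Fcgrt (adenine) and Dab2 (UUO) change sign with median-of-ratios scaling.

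Whether a gene changed by another amount in the models was tested on the difference of the log2 fold changes, adenine minus UUO. Of the 8 genes 2 passed, where 27.0% of 13486 genes tested in both tables did: Amn fell further after adenine, by -2.46 (95% interval -3.75 to -1.18, adjusted p = 0.00947), and Fcgrt differed by -0.68 (-1.01 to -0.35, adjusted p = 0.00647). Amn alone also differed by at least 2, as did 2.88% of genes, and without adenine rat 1 its difference was -1.94. With median-of-ratios scaling the difference of Fcgrt was -0.37 and did not pass (adjusted p = 0.158). For Lrp2 the difference was -0.67 (-1.90 to 0.57), for Lrpap1 -0.42 (-0.97 to 0.13), for Cubn 0.14 (-0.92 to 1.21) and for Dab2 0.51 (-0.33 to 1.36), and none of these passed. Clcn5, with opposite signs in the models, differed by 1.49 (0.22 to 2.77, adjusted p = 0.0752) and Ocrl by 0.63 (0.073 to 1.19, adjusted p = 0.0842). Both passed without control rat 1 (1.97, adjusted p = 0.0181, and 0.80, adjusted p = 0.0258) and with median-of-ratios scaling (1.81, adjusted p = 0.0418, and 0.93, adjusted p = 0.0199). Clcn5 also passed without UUO rat 3 (adjusted p = 0.0486) and with a pseudocount of 1 (adjusted p = 0.0478), and Lrpap1 passed without adenine rat 2 (-0.66, adjusted p = 0.0333).

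Among adenine rats, the same animals were low or high for most members, and among UUO rats this held for the lowest values only. Adenine rat 1 had the lowest value of its group for 7 of the 8 genes, all but Ocrl, and adenine rat 2 the highest for 6, namely Lrp2, Cubn, Amn, Fcgrt, Lrpap1 and Dab2. UUO rat 1 was lowest for 6 genes and highest for 1, Fcgrt, while UUO rat 2 was highest for 4 and UUO rat 3 for 3. In control and sham rats no rat was lowest or highest for more than 4. The summed FPKM of 14 proximal tubule markers ordered the injured rats as Lrp2 did, with 314, 1113 and 607 in adenine rats 1 to 3 and 552, 1128 and 749 in UUO rats 1 to 3. It was 5646, 4251 and 4213 in control rats and 5356, 6529 and 5802 in sham rats, which also shows that the tissue held abundant proximal tubule RNA.

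Set beside these markers, the change of Lrp2 lay among them and that of Cubn above most of them. The median log2 fold change of the 14 markers was -2.51 after adenine, with 10 lower, 1 higher (Slc5a12) and 3 not passing, and -2.87 after UUO, with 12 lower and 2 not passing. Of the 14 markers, 6 had a lower value than Lrp2 with adenine and 9 with UUO. For Amn, 1 of 14 markers was lower with adenine and 10 of 14 with UUO. For Cubn, itself a brush border gene of these cells, 12 of 14 markers were lower in both models. The part of these cells in the values of the members was not tested.

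**Figure D4:**
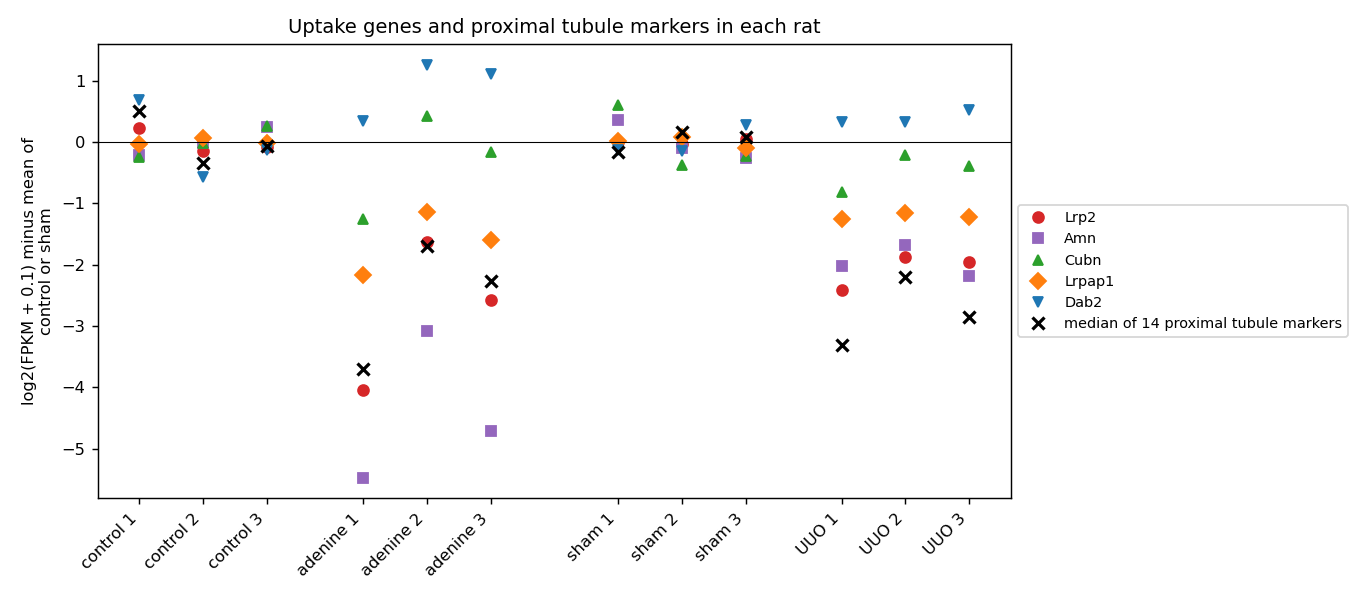
Log2(FPKM + 0.1) of 5 uptake genes and the median of 14 proximal tubule markers in each rat, minus the mean of the control or sham group of the same table. Crosses are marker medians within each rat. Lrp2 lies below them in adenine rats 1 and 3, just above in adenine rat 2 and above in UUO rats. Amn lies below them in adenine and above them in UUO rats, and Cubn and Dab2 lie above them in both. By fitted change, Lrp2 was 0.24 lower than the median of the marker changes after adenine and 0.79 higher after UUO.

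Other cell types differed between the groups as well. All 8 fibroblast and myofibroblast markers rose in both models (median 3.13 and 4.62 on the log2 scale), and the markers of loop, distal tubule and collecting duct had medians of -1.94 and -3.21 with 5 and 7 of 7 lower. The myeloid medians were 4.22 and 3.34 and the endothelial medians -0.63 and 0.55, the latter turning to -0.045 with median-of-ratios scaling. Of 6 podocyte markers 1 fell after adenine, and 1 rose and 1 fell after UUO, with medians of -1.17 and -0.53. Control rat 2 stood apart in podocyte markers, with a summed FPKM of 35.1 against 164 and 220 in the other controls. It had 0.232 FPKM of the proximal tubule glucose transporter Slc5a2 against 13.7 and 2.47. Sham rat 2 was also low in Slc5a2, with 3.06 against 19.6 and 29.9. Other proximal tubule markers went both ways in control rat 2: Ggt1, Aqp1 and Slc27a2 were highest of the controls there, while others, such as Slc34a1, were lowest. The 14 markers summed to 4251 FPKM in it, against 5646 and 4213 in control rats 1 and 3. Of the members, Lrp2, Dab2 and Clcn5 were lowest of the controls in control rat 2, and Fcgrt and Lrpap1 were highest in it. Control rat 1 was lowest for 4 members. Without control rat 2 the log2 fold changes of Lrp2, Dab2 and Clcn5 after adenine were -2.82, 0.62 and 0.22. The part of that library in their values was not tested.

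The genes with profiles nearest to Lrp2 over the 12 samples, by the root mean square difference of log2 values relative to control or sham, were Tinag (0.206), Glod5 (0.206), Anks4b (0.210), Cltrn (0.222) and Hnf4a (0.237) of 13485 genes. Hnf4a, a transcription factor of proximal tubule and liver that is also on the marker list, was 143, 116 and 110 FPKM in control and 9.93, 40.5 and 28.8 in adenine rats, and 156, 183 and 157 in sham and 31.6, 59.5 and 43.4 in UUO rats. Its log2 fold changes were -2.42 and -1.93, near those of Lrp2. Nearest to Cubn were Elovl2 (0.215), Cdh2 (0.235), Cpn1 (0.252), Napsa (0.277) and Zc2hc1c (0.296). Of these Cdh2, the gene of N-cadherin, had log2 fold changes of -0.34 and -0.085, and like Cubn none of the 5 passed the test in either model. Likeness of profile here is a description over 12 samples. Because the genes were picked by nearness in these same samples, fold changes near those of Lrp2 or Cubn follow from the pick.

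The other genes of the route were followed in 5 lists with 73 genes tested in each model. Of these 32 rose and 10 fell after adenine and 39 rose and 17 fell after UUO, with medians of 0.25 and 0.35, below the medians of all entries. Over all tested entries 39.6% rose and 19.9% fell after adenine and 56.1% rose and 14.4% fell after UUO, and the counts of each list below stand beside these shares. With median-of-ratios scaling the counts were 25 and 22 after adenine and 10 and 33 after UUO, so directions of small changes rest on the scaling.

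Coat and adaptor genes, which build the clathrin pit under megalin, all changed by less than 2 on the log2 scale. Of 17 genes, 8 rose and 2 fell after adenine (median 0.29, turning to -0.0061 with median-of-ratios scaling) and 11 rose and 0 fell after UUO (median 0.40, turning to -0.20, with 3 and 6 calls), where 39.6% and 56.1% of all entries rose. Eps15, a scaffold of the forming pit, rose most in both, by 1.81 from 6.68, 3.90 and 4.98 FPKM in control to 17.0, 17.3 and 20.1 in adenine rats, and by 1.14 from between 9.23 and 11.6 FPKM in sham to between 21.2 and 27.0 in UUO rats. Myo6, the actin motor that moves coated vesicles inward, fell by 0.90 after adenine (adjusted p = 0.00372) and had a log2 fold change of 0.082 after UUO (adjusted p = 0.616), which turned to -0.52 with median-of-ratios scaling.

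Endosome genes were as mixed. Of 17 genes of early and recycling endosomes tested after adenine 6 rose and 3 fell (median 0.26, turning to -0.031 with median-of-ratios scaling), and of 16 after UUO 10 rose and 2 fell (median 0.34, turning to -0.26, with 0 and 6 calls), where 39.6% and 56.1% of all entries rose and 19.9% and 14.4% fell. Inpp5b, the closest relative of Ocrl, had the largest rise after adenine among the genes that passed, by 1.08 (adjusted p = 0.000991), and was higher by 0.89 after UUO, the latter 0.29 and not passing with median-of-ratios scaling. Rab38 had the largest after UUO, by 1.01 (0.43 and not passing with median-of-ratios scaling), and a value of 1.11 after adenine that did not pass (adjusted p = 0.179). The largest falls that passed were those of the tether gene Eea1 after adenine and of Ehd1, a recycling ATPase, after UUO. Eea1 fell by 1.05 after adenine (adjusted p = 0.045) and had -0.73 after UUO (adjusted p = 0.0666). It was low, and its groups overlapped after adenine (1.87 to 3.47 FPKM in control and 0.802 to 1.94 in adenine rats). Ehd1 fell by 0.71 after UUO (adjusted p = 0.000184) and by 0.84 after adenine (adjusted p = 0.00149).

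Genes for endosome acidification, most of them subunits of the vacuolar proton pump, had calls in both directions. Of 20 genes, 6 rose and 3 fell after adenine (median -0.098) and 5 rose and 11 fell after UUO (median -0.32), where 39.6% and 19.9% of all entries rose and fell after adenine and 56.1% and 14.4% after UUO. With median-of-ratios scaling 5 rose and 9 fell after adenine and 0 rose and 16 fell after UUO, and with FPKM rescaled to the same sum the median after adenine turned to 0.17. Slc9a3, the sodium and proton exchanger of the brush border, fell most in both, from 12.3, 16.7 and 7.29 FPKM in control to 1.53, 3.53 and 1.91 in adenine rats and from 23.6, 25.5 and 16.4 in sham to 1.27, 3.49 and 1.87 in UUO rats (log2 fold changes -2.34 and -3.34, adjusted p = 0.00249 and 0.000242). Clcn4, a relative of Clcn5, had values of -0.40 (adjusted p = 0.273) and -1.29 (adjusted p = 0.000985), while the lysosomal Clcn7 rose by 1.65 after adenine, the largest rise there, and by 0.74 after UUO. Atp6v0a2, a pump subunit, had the largest rise after UUO, by 0.89, which with median-of-ratios scaling was 0.30 and did not pass.

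A list of 10 genes held the receptor family of megalin and Sort1, the gene of sortilin, which belongs to another family. Of these 10 genes 7 rose and 0 fell in each model (medians 0.81 and 0.71), where 39.6% and 56.1% of all entries rose. With median-of-ratios scaling these counts were 5 and 0 after adenine and 3 and 1 after UUO. Sort1 was among the 7 after adenine (0.59, limma adjusted p = 0.0407) and did not pass after UUO. Lrp1, the large receptor of macrophages and fibroblasts and another giant member of the family, rose from 2.60, 2.50 and 2.25 FPKM in control to 19.9, 14.3 and 15.8 in adenine rats (2.70 on the log2 scale, SE 0.16, adjusted p = 5.1e-05). It rose from 2.59, 2.53 and 2.87 FPKM in sham to 24.0, 18.7 and 17.1 in UUO rats (2.84, SE 0.16, adjusted p = 2.2e-05). In both models it thus moved opposite to Lrp2, beside the myeloid and fibroblast markers given above, whose part was not tested. Lrp1b and Sorl1 had no entry under these symbols in either model and were not tested.

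Messages of proteins that megalin or cubilin take up moved farthest, in both directions. Of 9 ligand genes tested after adenine 5 rose and 2 fell (median 0.89), and of 10 after UUO 6 rose and 4 fell (median 1.03), where 39.6% and 56.1% of all entries rose and 19.9% and 14.4% fell, with 5 and 4 calls and 4 and 4 calls by median-of-ratios scaling. Lcn2, the gene of the iron carrier NGAL that tubules make on injury, went from between 2.50 and 6.28 FPKM in control to between 399 and 538 in adenine rats (log2 fold change 7.08, adjusted p = 3.0e-05), and from between 3.88 and 8.04 in sham to between 337 and 447 in UUO rats (5.99, adjusted p = 1.3e-05). Gc, the gene of the vitamin D binding protein, went from 35.3, 167 and 72.0 FPKM in control rats to 0, 0.590 and 0.694 in adenine rats and from 97.1, 53.0 and 131 in sham to 5.01, 2.34 and 3.86 in UUO rats. Its log2 fold changes were -7.63 and -4.58 (adjusted p = 0.000557 and 9.3e-05), and the former includes a rat listed at 0. These values are messages made in the kidney and do not measure the filtered proteins. Alb, Ttr and Cblif, and after adenine Apoa1, were below the minimum level and were not tested.

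**Figure D5:**
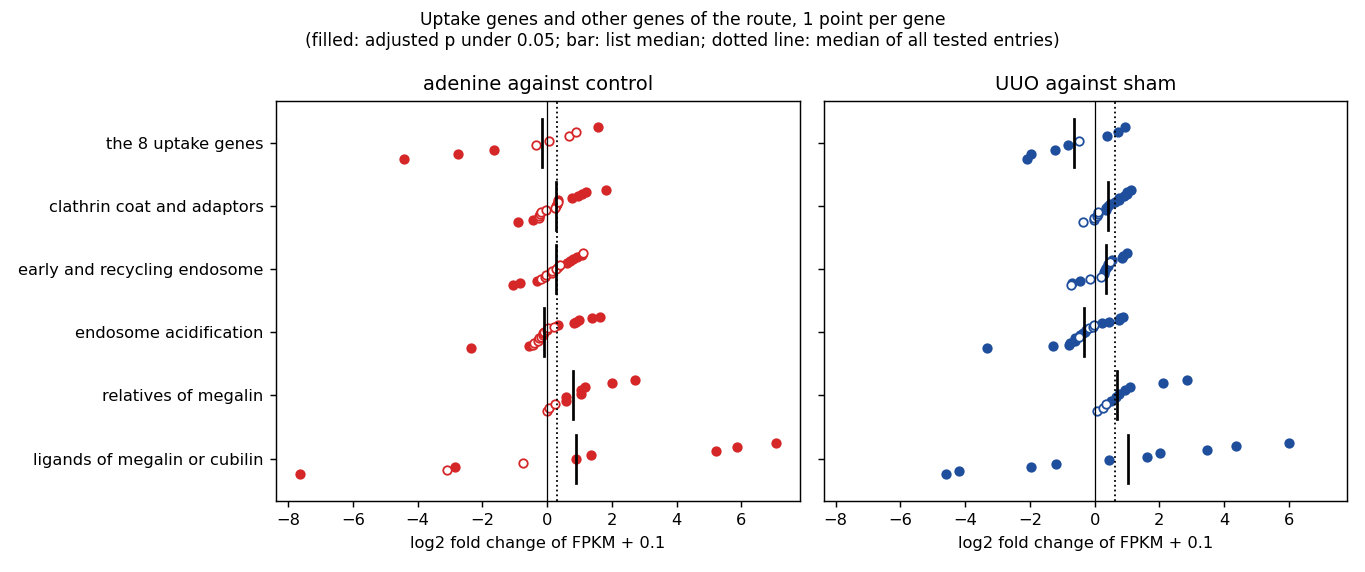
Log2 fold change of FPKM + 0.1 for the 8 uptake genes and 5 further lists of the route in both models, 1 point per gene, filled where the adjusted p was under 0.05; short bars are list medians and dotted lines the medians of all entries. The list labelled relatives of megalin, with Sort1 of another family, lies at or above 0, and the 8 uptake genes spread to both sides. Medians of the coat and endosome lists turn below 0 with median-of-ratios scaling.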

How the data were processed

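The authors deposited FPKM per gene, in 1 table per model, each normalized by itself. Poly(A) RNA was sequenced in pairs with a stranded kit. By the methods and processing notes, reads were trimmed (cutadapt 1.9), mapped (HISAT2 2.0.4) and assembled (StringTie 1.3.4d). DESeq2 and edgeR are also named, and counts were not used here. Genome build and annotation are not given in the sources used here. Depth is unknown.

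Samples were grouped by their labels. Each table was fitted with limma 3.58.1 (R 4.3.3; lmFit, eBayes with trend) on log2(FPKM + 0.1), with Benjamini-Hochberg adjustment over all tested entries, and the fit was tested on simulated data. The difference between models was tested as t, with the root of the summed squared SE below it and the degrees of freedom added. Rats with the same number are different animals. The correlations of their deviations were small (-0.12 to 0.11), and rats of the same number correlated best with each other in the UUO model only. The limma p-values set the difference between groups of 3 rats against the spread within them. Each variance was drawn toward a trend over all tested entries.

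The members, defined by symbol, and the lists were chosen with earlier results of these data known. Named genes are the 8 members, the largest rise and fall of each list and model, B2m, Lrp1, Slc9a3 and Clcn4, and the 5 genes nearest to Lrp2 and to Cubn. Slc5a2, Slc5a12, Slc34a1, Ggt1, Aqp1 and Slc27a2 were named after their values were seen, and Sort1 because it belongs to another receptor family. Some genes that these rules take in are counted in their lists and not reported here by name. Alternatives changed the pseudocount (1, 0.01), the filter (none, or FPKM of 1) and the scaling (median-of-ratios, equal sums), dropped the trend, added a replicate block or left out each rat.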

Additional observations from a re-analysis of the deposited data

Results flagged for a closer look

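The change of 2 genes differed between the models by the test of the difference itself. Passing this test was common, since 27.0% of 13486 genes tested in both models passed it. For Amn the log2 fold change of the adenine model minus that of the UUO model was -2.4615, with all 3 injured rats below all uninjured rats in each model, and the difference passed with each rat left out in turn (adjusted p from 0.00012 to 0.0337). For Fcgrt it was -0.6815, with overlapping groups in the adenine model and all 3 UUO rats above all sham rats, and the difference did not pass with median-of-ratios scaling. The part of other cell types in either difference was not tested.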

How the results depend on the processing

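By adjusted p alone, Lrp2, Amn and Lrpap1 kept direction and call in both models under all alternatives run, as did Ocrl in the adenine model. Median-of-ratios scaling turned Fcgrt in the adenine model to -0.24 and Dab2 in the UUO model to -0.21 (log2), gave 2 UUO members past both thresholds, Lrp2 and Amn (1 as reported, Lrp2) and, for the lists of the route, 22 falls in the adenine model (10 as reported) and 10 rises and 33 falls in the UUO model (39 and 17). Scaling to equal sums of FPKM gave 0 UUO members past both thresholds and 6 list falls in the adenine model. Cubn, which passed in neither model, ranged from -0.71 to 0.13 in the adenine model with each rat left out (0.13 without adenine rat 1) and from -0.66 to -0.18 in the UUO model (-0.18 without sham rat 1), and its difference between the models from -0.23 to 0.61, with -0.23 without adenine rat 2, -0.16 without sham rat 1 and -0.03 without UUO rat 1. With each rat left out in turn, UUO members past both thresholds numbered 0 to 2 (0 without UUO rat 1, 2 without sham rat 2, sham rat 3 or UUO rat 2), members that differed between the models 2 to 4 (4 without control rat 1), and those differing by at least 2 numbered 0 to 1 (0 without adenine rat 1). The causes were not tested.

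The block for the replicate number, which pairs no animals, left 4 and 7 members called and changed the entries called from 8934 to 7915 and from 10606 to 10578. Each UUO model rat correlated best with its own number, and this did not hold in the adenine model. A pseudocount of 1 lowered the entries past both thresholds from 2360 to 1320 and from 2613 to 1465. The higher share of these entries was 68.0% and 75.8% as reported, 57.8% and 56.7% with median-of-ratios scaling, and 76.1% and 81.2% with equal sums. Read depth is unknown, so for Clcn5 and Ocrl, at a few FPKM, counting error could not be given.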
